A study of Mus musculus with 6 samples.

Results

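The Rap1, ROCK and formin cytoskeleton genes were examined in tumor-associated macrophages (TAMs) with and without myeloid deletion of Pdcd1, the gene of the checkpoint receptor PD-1. The 10 genes were chosen by symbol, and each matched 1 Ensembl ID of the 55421 in the raw count table and of the 16552 in the normalized table. Rap1a and Rap1b encode the Rap1 GTPases, Apbb1ip encodes their effector RIAM, Tln1 encodes talin, Rapgef1 encodes an exchange factor of Rap1, Rock1 and Rock2 encode the ROCK kinases, and Diaph1, Diaph2 and Diaph3 encode the diaphanous formins. The study lists Apbb1ip and Rap1a as upregulated both in these TAMs and in TAMs with myeloid deletion of SHP-2, from DESeq2 with Storey q-values. All 10 genes were chosen with earlier results of these data known. The list was thus not picked independently of these libraries. Its counts beside the shares of all genes are a description only.

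Mice with loxP-flanked Pdcd1 alleles and no Cre (Pdcd1f/f) were the controls. Their counterparts (Pdcd1f/fLysMcre) carried the same floxed alleles and Cre driven by the lysozyme M promoter, which is active in monocytes, macrophages and granulocytes and not in macrophages alone. All mice had been implanted with the M17 tumor, the MC17-51 fibrosarcoma line of the study's methods, and CD11b+F4/80+ TAMs were taken from the tumors on day 15. Each genotype had 3 polyA RNA libraries. The ages of these mice are given only as a range for the study, and whether a library came from 1 mouse is not stated, so p-values measure the spread between these libraries. Every library held sex-linked transcripts of both kinds, as given below for Diaph2.

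Rap1 is a small GTPase that cycles between an inactive GDP-bound and an active GTP-bound form. Exchange factors load it with GTP, active Rap1 recruits RIAM to the membrane, and RIAM brings talin to the tails of integrins, which raises their affinity for ligand and links them to actin. In leukocytes this route controls adhesion to endothelium and matrix. RhoA, a related GTPase, acts on the same filaments through ROCK kinases, which keep myosin light chains phosphorylated and so drive contraction, and through diaphanous formins, which it releases from autoinhibition to elongate unbranched actin filaments.

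In the comparison of all 6 libraries, 8 of the 10 genes were higher in Pdcd1f/fLysMcre TAMs than in Pdcd1f/f TAMs, by between 7.45% for Diaph1 and 25.1% for Diaph3, and Tln1 and Diaph2 were not. None of the 10 passed the threshold of an adjusted p of 0.05 from edgeR, where 2.42% of the 14469 genes tested passed as higher and 3.01% as lower. At an unadjusted p under 0.05, 7 of the 10 passed in edgeR, as did 24.2% of all genes. DESeq2 called 4 of the 10, Rap1a, Rap1b, Apbb1ip and Diaph3, with 5.85% of its genes called higher. With Storey q-values, the kind the study used, DESeq2 called 5 of the 10, where 934 of 12693 genes were called higher. Rap1a (q = 0.0074 from DESeq2) and Apbb1ip (q = 0.0104 from DESeq2), which the study lists as upregulated, were among the 5. With offsets that remove the trend of each library with GC content and gene length, 8 of the 10 passed as higher and none as lower, against 11.2% and 7.74% of all genes, and with GC content offsets alone 7 passed, against 10.7%. The 2 libraries that deviated most toward AT-rich genes were Pdcd1f/f replicate 1 and Pdcd1f/fLysMcre replicate 2, and without both 7 of the 10 passed as higher, against 12.5% of all genes. With the offsets as well, 9 of the 10 passed in these 4 libraries, against 13.5%, and without Pdcd1f/f replicate 1 alone and without offsets 6 passed, against 10%. The median log2 fold change of the 10 genes was 0.24 without offsets and 0.17 with them, beside medians over all genes of −0.003 and 0.02.

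**Figure D1:**
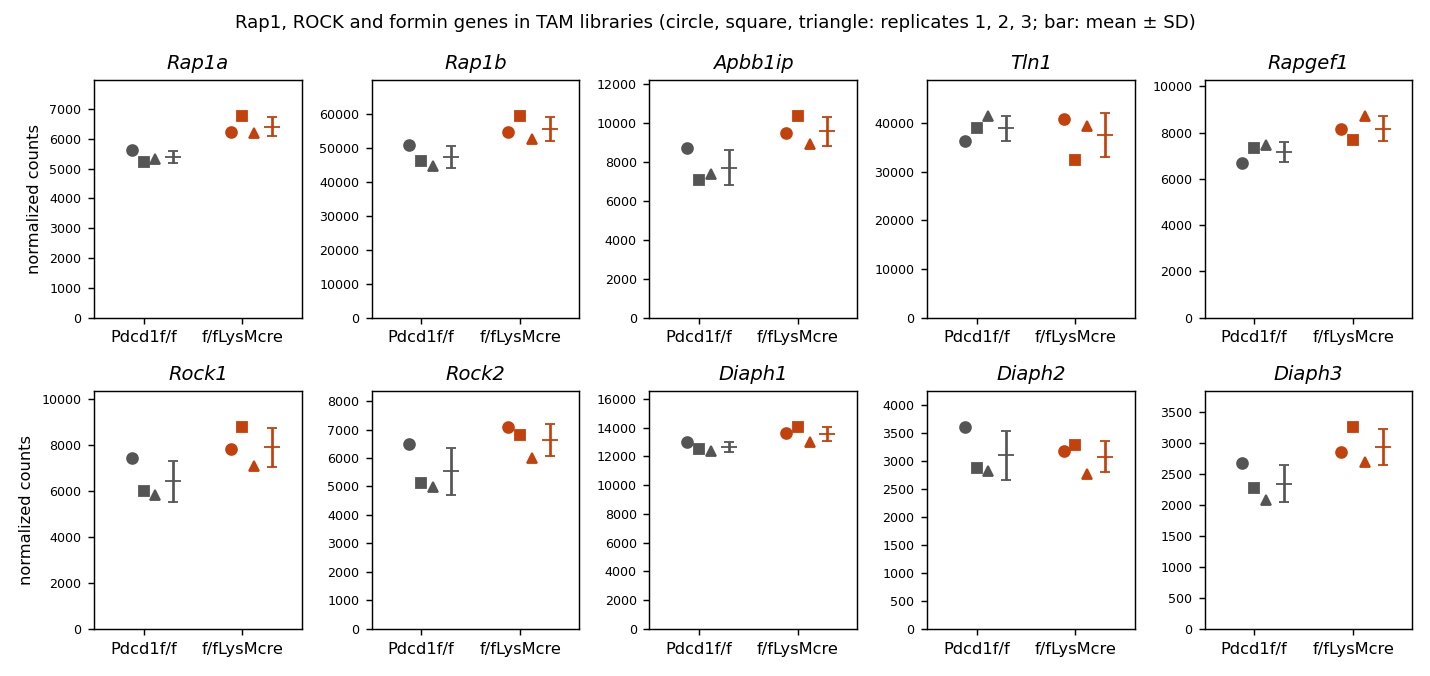
Normalized counts (y axis, linear from 0) of the 10 genes in each TAM library, with Pdcd1f/f in grey and Pdcd1f/fLysMcre in orange (x axis), symbols for replicates 1 to 3, and the mean ± SD of each genotype beside them. All 3 Pdcd1f/fLysMcre libraries lay above all 3 Pdcd1f/f libraries for Rap1a, Rap1b, Apbb1ip, Rapgef1 and Diaph3, and the genotypes overlapped for the other 5 genes.

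The libraries held between 41833823 and 51417209 counts, so even the least abundant of the 10 genes, Diaph3, had at least 1904 counts in a library. The libraries differed by more than counting error within each genotype, and in ways related to base composition. The Spearman correlation between the GC content of a gene and its deviation from the genotype mean, taken over 8813 genes that are no independent replicates, was −0.80 in Pdcd1f/f replicate 1 and −0.75 in Pdcd1f/fLysMcre replicate 2, and 0.58, 0.76, 0.22 and 0.77 in the others. Lyz2, which carries the Cre insertion, was at 216864 ± 8638 normalized counts (SD, n = 3) in Pdcd1f/f and 427 ± 33.4 (SD, n = 3) in Pdcd1f/fLysMcre, low only where the labels place Cre. Pdcd1 itself was near the limit of detection, at 9.27, 13.4 and 16.4 normalized counts against 6.48, 15.2 and 10.8, so its transcript did not check the deletion.

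The macrophage label held, since Csf1r, Adgre1, Cd68 and Mrc1 were abundant in all libraries, but the sum of the 8 macrophage markers was lower in Pdcd1f/fLysMcre, at 330256 to 336412 against 395565 to 413779 normalized counts, with 4 of the 8 past the edgeR threshold as lower. The 8 neutrophil markers summed to 5424 to 5552 against 6520 to 6682, with 2 past the threshold as lower and the defining genes Ly6g and Camp at or near 0. Most of that sum came from Csf3r, Mmp8 and S100a8, and S100a8 and S100a9 ran the other way with overlapping libraries, at 1419.8 to 1554 against 1089 to 1485 and 606 to 648 against 547 to 610.2. The 12 genes of dividing cells summed to 93614 to 100480 against 87167 to 101466, and none passed. Of the platelet markers, whose median log2 fold change was −0.14, Ppbp and Itgb3 passed as higher. Pf4 (32186 to 33471 against 35725 to 37243) and Treml1 (5.90 to 11.1 against 13.4 to 18.6) were lower in every library with Cre and did not pass, and Gp9 and Gp1ba were at or near 0. The defining T cell and NK cell genes Cd3e and Ncr1 were at or near 0 as well. The dendritic cell markers summed to 285 to 361 against 221 to 302, the fibroblast markers to 3123 to 3483 against 3292 to 3564 and the endothelial markers to 1526 to 1669 against 1880 to 1998. The lower endothelial sum came from Pecam1 (642 to 767 against 1029 to 1122). Cdh5 (155 to 178 against 166 to 173) and Kdr (668 to 722 against 673 to 703) overlapped, and Tie1 and Emcn were low. The part of these differences in the results below was not tested. In bulk RNA, fewer cells of a type and less RNA per cell cannot be told apart.

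Reads were 42 bases long, so the similarity of Rap1a and Rap1b bears on whether their reads could be separated. Their coding sequences are each 552 bases long in the GENCODE annotation of GRCm38 and differ at 101 bases, so that 81.7% are identical. The first 90 coding bases are shown because they display how the differences are spread, with the 13 bases that differ in capitals.
Rap1a: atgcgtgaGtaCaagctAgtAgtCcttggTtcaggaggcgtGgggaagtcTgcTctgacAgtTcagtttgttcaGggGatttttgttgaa
Rap1b: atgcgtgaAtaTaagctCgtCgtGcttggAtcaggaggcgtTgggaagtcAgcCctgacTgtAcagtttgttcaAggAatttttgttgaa
The longest identical stretch runs over 20 bases, from coding base 79 to 98, which is shorter than a read. No stretch of 42 bases in Rap1b was found in a transcript of another gene. In Rap1a, 10.1% of such stretches were shared with the pseudogenes Gm9392 and Rap1a-ps2, and these had 31 to 50 counts and 0 counts per library beside 4687 to 7104 for Rap1a.

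Rap1b was by far the more abundant of the Rap1 genes. Its normalized counts were 50752, 45942 and 44678 in Pdcd1f/f and 54695, 59276 and 52461 in Pdcd1f/fLysMcre. All libraries with Cre lay above all without, and Pdcd1f/f replicate 1 was the highest of its group. Mean levels of 47124 ± 3205 and 55478 ± 3474 (SD, n = 3 each) gave a log2 fold change of 0.24 (SE 0.07, 95% interval 0.08 to 0.40, adjusted p = 0.0791 from edgeR). Rap1a, at chr3:105727267-105801336 on the minus strand, had 5629, 5237 and 5336 normalized counts in Pdcd1f/f and 6231, 6766 and 6205 in Pdcd1f/fLysMcre. Here too the genotypes did not overlap, with Pdcd1f/fLysMcre replicate 2 the highest library. The log2 fold change of Rap1a was 0.25 (SE 0.06, 95% interval 0.11 to 0.39, adjusted p = 0.0513 from edgeR). Per length, Rap1b was at 346 ± 23.1 FPKM and Rap1a at 43.9 ± 1.54 FPKM in Pdcd1f/f TAMs (SD, n = 3 each). The ratio of Rap1b to Rap1a was 7.88 ± 0.294 in Pdcd1f/f and 7.83 ± 0.165 in Pdcd1f/fLysMcre (SD, n = 3 each, two-sided exact permutation p = 0.9).

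With the GC content and length offsets both Rap1 genes passed as higher, by 0.16 on the log2 scale for Rap1a (SE 0.05, adjusted p = 0.0362 from edgeR) and 0.15 for Rap1b (SE 0.04, adjusted p = 0.00879 from edgeR). Rap1a did not pass with the offsets when Pdcd1f/f replicate 1 was left out (adjusted p = 0.120 from edgeR). With GC content offsets alone Rap1a did not pass either (adjusted p = 0.0549 from edgeR), and Rap1b did (adjusted p = 0.0151 from edgeR). Both transcripts are AT-rich, with a GC content of 38.8% and 39.9%, and genes of that composition had a median log2 fold change of 0.13 without offsets and 0.03 with them.

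Apbb1ip, at chr2:22774094-22875653 on the plus strand, encodes the adaptor RIAM, which binds active Rap1 and talin and also the Ena/VASP proteins that promote actin polymerization. Its normalized counts were 8728, 7056 and 7378 in Pdcd1f/f and 9485, 10371.5 and 8909 in Pdcd1f/fLysMcre. The lowest library with Cre exceeded the highest without it by little, and the latter was Pdcd1f/f replicate 1. The means of 7720.4 ± 887 and 9588 ± 737 (SD, n = 3 each) gave a log2 fold change of 0.31 (SE 0.09, 95% interval 0.12 to 0.51, adjusted p = 0.0670 from edgeR). With the offsets Apbb1ip passed at 0.22 (SE 0.04, adjusted p = 0.00125 from edgeR), and without the 2 AT-rich libraries at 0.35 (adjusted p = 1.1e-04 from edgeR).

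Tln1 encodes talin, which binds integrin tails and actin. The 3 Pdcd1f/f libraries had 36416, 38945 and 41480 normalized counts of Tln1, and the 3 Pdcd1f/fLysMcre libraries 40774, 32484 and 39517. The genotypes overlapped, and the lowest value was that of Pdcd1f/fLysMcre replicate 2. The log2 fold change was −0.05 (SE 0.09, 95% interval −0.25 to 0.15, adjusted p = 0.778 from edgeR) and 0.08 with the offsets (95% interval −0.02 to 0.17, adjusted p = 0.248 from edgeR). The exons of Tln1, at chr4:43531519-43562691 on the minus strand, overlap those of Creb3 on the other strand over 3.23% of their 42-base stretches, and how strand was used in counting is not given in the sources used here. The ratio of Apbb1ip to Tln1 in FPKM was 0.264 ± 0.0460 in Pdcd1f/f and 0.343 ± 0.0690 in Pdcd1f/fLysMcre (SD, n = 3 each, two-sided exact permutation p = 0.3). It is not corrected for GC content, which was 40.3% for Apbb1ip and 57.0% for Tln1. Its highest values were in Pdcd1f/f replicate 1 (0.317) and Pdcd1f/fLysMcre replicate 2 (0.422), each within its genotype.

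Rapgef1, at chr2:29619720-29740978 on the plus strand, encodes an exchange factor that loads Rap1 with GTP after recruitment by Crk adaptors. It had 6679, 7359 and 7475 normalized counts in Pdcd1f/f and 8147, 7663 and 8722 in Pdcd1f/fLysMcre. The groups did not overlap, and as for Tln1, Pdcd1f/f replicate 1 and Pdcd1f/fLysMcre replicate 2 were the lowest of their groups. Its means of 7171 ± 430.3 and 8177 ± 530.3 (SD, n = 3 each) gave a log2 fold change of 0.19 (SE 0.07, 95% interval 0.03 to 0.35, adjusted p = 0.141 from edgeR). Rapgef1 is GC-rich at 56.2%, and the 2432 tested genes of 55 to 60% GC had a median log2 fold change of −0.14. With the offsets its difference was the largest of the 10 genes, 0.31 (SE 0.04, adjusted p = 4.6e-05 from edgeR), an increase of 23.6%. Of its 42-base stretches, 3.23% overlap the opposite-strand gene Gm9823.

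**Figure D2:**
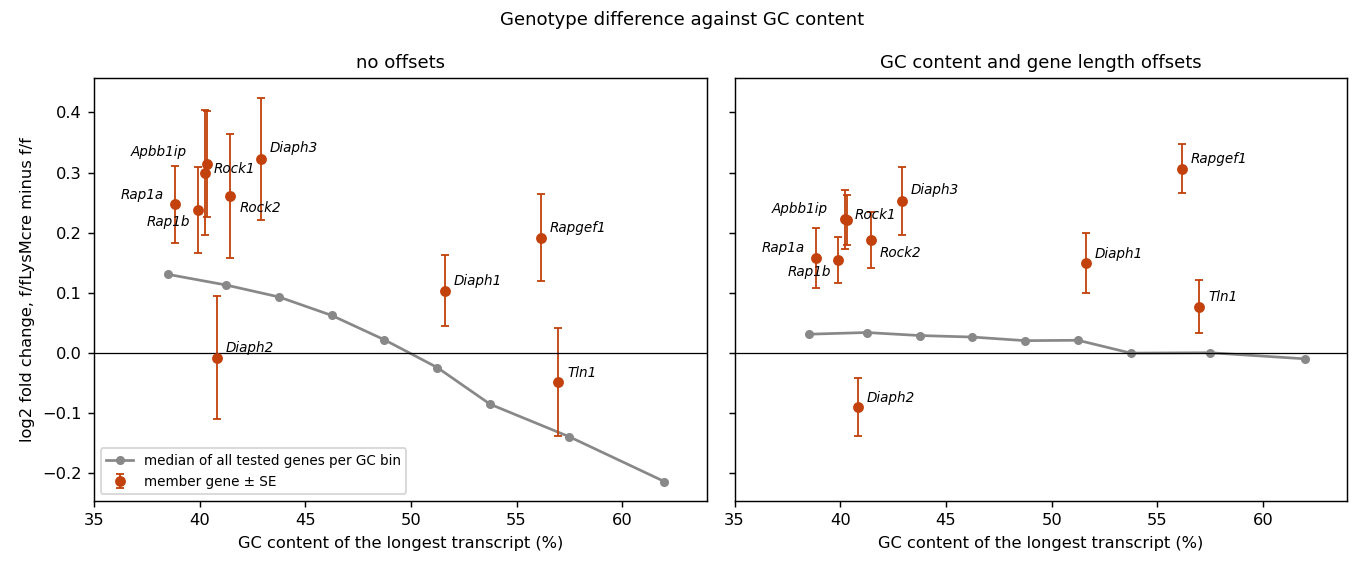
Log2 fold change of the 10 genes (orange, ± SE) and median of all tested genes in bins of GC content (grey line) against GC content of the longest transcript in percent, without offsets on the left and with GC content and gene length offsets on the right. The grey line falls from 0.13 to −0.21 on the left and lies between 0.03 and −0.01 on the right, and Rapgef1 moves from 0.19 to 0.31.

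The ROCK kinases were expressed at similar levels and varied together. Rock1 had 7440, 6029.9 and 5815 normalized counts in Pdcd1f/f and 7848, 8781 and 7083 in Pdcd1f/fLysMcre. Rock2 had 6485, 5125 and 4991 against 7076, 6802 and 5991. In both genes Pdcd1f/f replicate 1 reached into the range of the libraries with Cre, so the genotypes overlapped. The log2 fold change was 0.30 for Rock1 (SE 0.10, 95% interval 0.07 to 0.53, adjusted p = 0.116 from edgeR) and 0.26 for Rock2 (SE 0.10, 95% interval 0.03 to 0.49, adjusted p = 0.156 from edgeR). Without Pdcd1f/f replicate 1 these became 0.41 (adjusted p = 0.00474 from edgeR) and 0.38 (adjusted p = 0.00447 from edgeR). Neither gene passed with any other single library left out, with adjusted p from edgeR of 0.0893 to 0.353 for Rock1 and 0.118 to 0.434 for Rock2. With the offsets and all libraries the log2 fold changes were 0.22 (SE 0.05, adjusted p = 0.00381 from edgeR) and 0.19 (SE 0.05, adjusted p = 0.00940 from edgeR). The ratio of Rock1 to Rock2 in FPKM was 0.893 ± 0.0113 in Pdcd1f/f and 0.917 ± 0.0703 in Pdcd1f/fLysMcre (SD, n = 3 each, two-sided exact permutation p = 0.7). Rock1 lies at chr18:10064401-10182045 on the minus strand and Rock2 at chr12:16894895-16987823 on the plus strand.

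None of the 3 diaphanous formins passed the threshold without offsets. Diaph3, at chr14:86655367-87141235 on the minus strand, encodes a formin with roles in filopodia and cell division, and had 2669.8, 2278 and 2085 normalized counts in Pdcd1f/f and 2846, 3251 and 2692 in Pdcd1f/fLysMcre. The libraries with Cre lay above those without, although Pdcd1f/fLysMcre replicate 3 and Pdcd1f/f replicate 1 were nearly level. The means of 2344 ± 298 and 2929.9 ± 289 (SD, n = 3 each) gave a log2 fold change of 0.32 (SE 0.10, 95% interval 0.10 to 0.55, adjusted p = 0.0887 from edgeR), which was 0.25 with the offsets (SE 0.06, adjusted p = 0.00447 from edgeR). The sums of the genes of dividing cells overlapped between the genotypes, as given above. Of these 12 genes, 1 did not overlap, Ccna2, at 7688 to 8213 in Pdcd1f/fLysMcre against 6648 to 7372 in Pdcd1f/f. Whether cell division bears on the difference of Diaph3 was not tested.

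Diaph1, at chr18:37843601-37935476 on the minus strand, encodes the diaphanous formin best known from leukocytes. It had 13024, 12494.5 and 12407 normalized counts in Pdcd1f/f and 13651, 14019 and 13021 in Pdcd1f/fLysMcre. The lowest library with Cre fell just below the highest without. The log2 fold change was 0.10 (SE 0.06, 95% interval −0.03 to 0.23, adjusted p = 0.312 from edgeR) and 0.15 with the offsets (SE 0.05, adjusted p = 0.0465 from edgeR). That call is close to the threshold, and without the 2 AT-rich libraries and without offsets Diaph1 did not pass (0.10, adjusted p = 0.141 from edgeR).

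Diaph2, at chrX:129749742-130465834 on the plus strand, was the least abundant of the 10 genes per length. It had 3595, 2878 and 2814 normalized counts in Pdcd1f/f and 3169.9, 3285 and 2769.8 in Pdcd1f/fLysMcre. Of the 3 libraries with Cre, 2 lay within the range of the controls and 1 just below it. The log2 fold change was −0.01 (SE 0.10, 95% interval −0.23 to 0.22, adjusted p = 0.969 from edgeR) and −0.09 with the offsets (95% interval −0.19 to 0.01, adjusted p = 0.216 from edgeR). Genes of its GC content had a median of 0.11 without offsets. The genotypes also differed in sex-linked transcripts. Xist was at 20829 ± 4966 and 10467 ± 2389 normalized counts (SD, n = 3 each), and 4 Y-linked genes summed to 1545 to 1914 and 6267 to 7233. Every library held both, with Xist between 8530 and 26511, as a pool of mice of both sexes would. Whether the libraries were such pools is not stated. The sex make-up of the libraries and the genotype thus cannot be told apart, for this X-linked gene or for any other gene here. Over the 461 tested X-linked genes the median log2 fold change was 0.04. The ratio of Diaph1 to Diaph3 in FPKM was 4.78 ± 0.472 in Pdcd1f/f and 4.08 ± 0.257 in Pdcd1f/fLysMcre (SD, n = 3 each), with no overlap and the smallest p that 3 against 3 libraries allow (two-sided exact permutation p = 0.1). The closest libraries were nearly level, Pdcd1f/f replicate 1 at 4.29 and Pdcd1f/fLysMcre replicate 3 at 4.25. FPKM carries no correction for GC content, which was 51.6% for Diaph1 and 42.9% for Diaph3. The ratio of Diaph1 to Diaph2 was 7.52 ± 0.795 and 8.06 ± 0.437 (SD, n = 3 each, two-sided exact permutation p = 0.6).

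**Figure D3:**
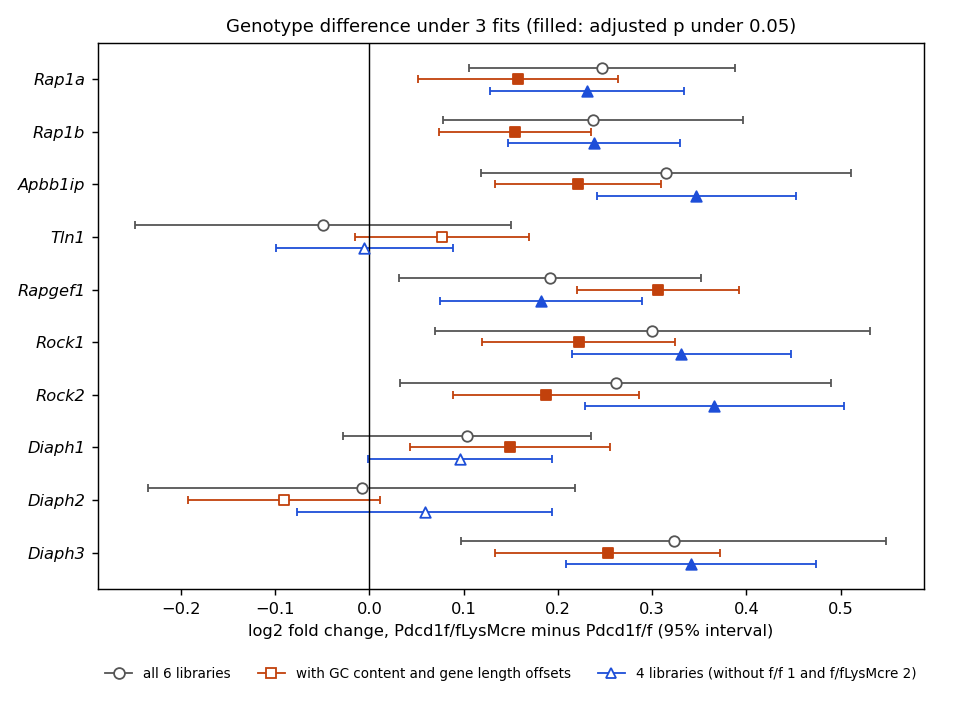
Log2 fold change (x axis) with 95% interval for each of the 10 genes (y axis) in 3 edgeR fits, all libraries (grey circles), with offsets (orange squares) and without Pdcd1f/f replicate 1 and Pdcd1f/fLysMcre replicate 2 (blue triangles), filled where the adjusted p was under 0.05. No grey circle is filled, 8 orange squares and 7 blue triangles are, and Tln1 and Diaph2 are open in all 3 fits.

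Counted over the 10 genes, the libraries of the genotypes did not overlap for 5, all with Pdcd1f/fLysMcre above, while 14.1% of all tested genes did not overlap in that direction and 13.1% in the other. The order of the libraries was much the same for most of the 10. Pdcd1f/f replicate 1 was the highest control library for 8 of the 10, all but the GC-rich Tln1 and Rapgef1, for which it was the lowest, and Pdcd1f/fLysMcre replicate 3 was the lowest library with Cre for those same 8. The median deviation of the 10 genes from their genotype mean was 0.14 on the log2 scale in Pdcd1f/f replicate 1 and 0.09 in Pdcd1f/fLysMcre replicate 2, beside 0.12 and 0.09 for the 2493 abundant genes with under 45% GC.

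Expression per length ordered the 10 genes from Rap1b through Tln1, Rap1a, Diaph1, Apbb1ip, Rapgef1, Diaph3, Rock2 and Rock1 to Diaph2. In Pdcd1f/f TAMs the mean levels were 346 FPKM for Rap1b, 84.2 for Tln1, 43.9 for Rap1a, 42.2 for Diaph1, 22.1 for Apbb1ip and 20.6 for Rapgef1. Diaph3, Rock2, Rock1 and Diaph2 were at 8.92, 8.43, 7.52 and 5.67 FPKM. In Pdcd1f/fLysMcre TAMs the order was the same, from 408 FPKM for Rap1b to 5.64 for Diaph2. Neighbours whose Pdcd1f/f libraries overlapped were Rap1a and Diaph1, Apbb1ip and Rapgef1, Diaph3 and Rock2, and Rock2 and Rock1. Rap1b was above 99.2% of all tested genes in FPKM and Diaph2 above 56.9%.

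Rap1b lies 532 kb from Lyz2, at chr10:117813871-117846035 on the minus strand, and so near the Cre insertion. Of the 16 tested genes within 1 Mb of Lyz2, Lyz1, Cpsf6 and Mdm1 passed as higher and Lyz2 as lower. Lyz1, a paralog of Lyz2, was at 156 ± 25.9 and 3625 ± 179 normalized counts (SD, n = 3 each). Cpsf6, a pre-mRNA cleavage factor, had a log2 fold change of 0.27 (SE 0.06, adjusted p = 0.0317 from edgeR), and its call ended with the offsets (0.16, adjusted p = 0.0523 from edgeR). Mdm1, a microtubule-binding centriole protein, had one of 0.75 (SE 0.08, adjusted p = 8.1e-04 from edgeR). Without Lyz1 and Lyz2, 13 of the 14 genes were above 0, with a median of 0.22, where 7169 of 14467 genes were above 0 over the genome. Libraries did not overlap for 8 of the 14, all higher, where 2034 of 14467 genes did so as higher. Within 10 Mb of Lyz2, 54 of 84 genes were above 0, with a median of 0.09. The difference of Rap1b, at 0.24, was close to the median of 0.22 within 1 Mb and above that within 10 Mb. Both sets include Rap1b, and both medians are without offsets. With the offsets Rap1b was at 0.15, and the 14 genes ran from −0.28 for 4933412E12Rik to 0.72 for Mdm1. Whether it belongs to the genotype at Pdcd1 or to the chromosome segment that carries Cre cannot be told apart in this design, since the controls had no Cre. For the same reason, the deletion of Pdcd1 cannot be told apart from Cre itself or from the drop in Lyz2 for any gene here.

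**Figure D4:**
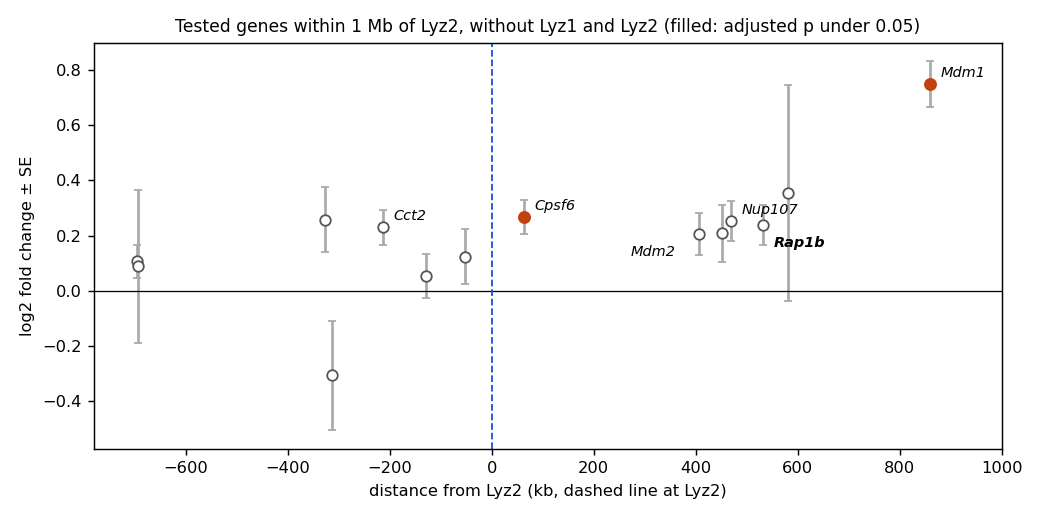
Log2 fold change ± SE (y axis) of 14 tested genes against their distance from Lyz2 in kb (x axis, Lyz2 at the dashed line), without Lyz1 and Lyz2, filled where the adjusted p from edgeR was under 0.05. All but 1 of the genes lie above 0, and Rap1b at 0.24 stands beside Nup107 and Mdm2 at 0.25 and 0.20.

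Sequence just upstream of the genes is shown for Rapgef1 and Diaph2, which had the largest and the lowest difference with the offsets and whose windows hold no annotated exon. The windows are the 250 bases before the RefSeq start on GRCm38.p6, and capitals mark the letters GGAAGT, the core bound by ETS factors, on either strand.
Rapgef1, chr2:29619470-29619719, plus strand: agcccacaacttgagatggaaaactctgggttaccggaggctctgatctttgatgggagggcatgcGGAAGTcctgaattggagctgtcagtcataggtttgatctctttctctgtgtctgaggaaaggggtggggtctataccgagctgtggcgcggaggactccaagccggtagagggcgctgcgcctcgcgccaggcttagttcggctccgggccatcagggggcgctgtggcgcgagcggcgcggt
Diaph2, chrX:129749492-129749741, plus strand: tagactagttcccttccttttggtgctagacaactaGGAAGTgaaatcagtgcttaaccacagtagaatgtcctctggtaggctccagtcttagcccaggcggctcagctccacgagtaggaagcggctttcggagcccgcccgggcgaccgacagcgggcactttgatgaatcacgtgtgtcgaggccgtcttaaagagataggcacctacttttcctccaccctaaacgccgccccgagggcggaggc
Each window held 1 such core. The RefSeq table had a window for 7 of the 10 genes, all but Rap1a, Rock1 and Diaph1. The ETS core was in 4 of the 7 (Apbb1ip, Tln1, Rapgef1 and Diaph2) and in 19.7% of the 32851 windows of the genome. The GC box GGGCGG was in 3 of the 7 (Rap1b, Rock2 and Diaph2) and in 32.7% of all windows, and CCAAT was in 2 of the 7 (Rapgef1 and Diaph3) and in 33.8% of all, with each motif searched on both strands. The CArG box bound by SRF, a factor that responds to actin dynamics, was in 0 of the 7 and in 1.47% of all windows. These matches are a description of letters and not of binding, and the genes with an ETS core included Rapgef1 as well as Tln1 and Diaph2, which did not pass with the offsets.

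Genes of the wider Rap1 circuit passed the threshold in both directions. For this and the lists below, 2.42% of all genes passed as higher without offsets and 3.01% as lower. Among 16 tested exchange factors, GTPase-activating proteins and partners of Rap, 1 passed as higher and 1 as lower, with a median log2 fold change of 0.04. Rapgef2, another Rap exchange factor, rose by 0.32 on the log2 scale (SE 0.06, adjusted p = 0.0136 from edgeR), with means of 7676 ± 210.2 and 9579 ± 419 normalized counts (SD, n = 3 each), and was also at 0.32 with the offsets. Sipa1l1, a GTPase-activating protein that turns Rap off, fell by 0.37 on the log2 scale (SE 0.09, adjusted p = 0.0421 from edgeR), with means of 2196 ± 140.3 and 1695 ± 182 normalized counts (SD, n = 3 each). Rap1gap, of the same function, was low, at 72.0 ± 13.6 and 42.1 ± 9.12 normalized counts (SD, n = 3 each), and did not pass (adjusted p = 0.0869 from edgeR). Leaving out Pdcd1f/f replicate 2 or 3 or Pdcd1f/fLysMcre replicate 1 ended the call of Rapgef2, with adjusted p from edgeR of 0.0997, 0.0650 and 0.1002. For Sipa1l1 those 3 and Pdcd1f/fLysMcre replicate 2 did so, with adjusted p from edgeR of 0.191, 0.150, 0.139 and 0.117.

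Among 20 tested Rap effectors and integrin adaptors none passed as higher and 1 as lower, with a median of 0.04. Evl, an Ena/VASP protein that binds RIAM, fell by 0.41 on the log2 scale (SE 0.09, adjusted p = 0.0224 from edgeR), with means of 2116 ± 193 and 1585 ± 113 normalized counts (SD, n = 3 each). With the offsets its log2 fold change was −0.21 (adjusted p = 0.0227 from edgeR). That call ended without Pdcd1f/f replicate 2 or 3 or Pdcd1f/fLysMcre replicate 1 or 2, with adjusted p from edgeR of 0.119, 0.0959, 0.0774 and 0.0831. Raph1, which encodes lamellipodin, the close relative of RIAM, was at 0.34 (adjusted p = 0.0526 from edgeR), and Vcl, which encodes the talin-binding protein vinculin, at 0.23 (adjusted p = 0.0572 from edgeR). Neither passed without offsets, and both did with them (adjusted p = 3.3e-04 and 0.00168 from edgeR). With the offsets 7 of the 20 passed as higher and 1 as lower, beside 11.2% and 7.74% of all genes.

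Around the ROCK kinases the clearest difference was in Ssh2, which encodes a slingshot phosphatase that reactivates the actin-severing protein cofilin. It had 7494, 6797.5 and 6877 normalized counts in Pdcd1f/f and 5547, 5137 and 4731 in Pdcd1f/fLysMcre, with a wide gap between the genotypes. Ssh2 fell with a log2 fold change of −0.46 (SE 0.07, adjusted p = 0.00641 from edgeR), which was −0.49 with the offsets, and the call held with each of the 6 libraries left out. Ssh2 was the 1 gene past the threshold among 25 tested regulators and targets of the ROCK kinases, whose median was −0.03 without offsets and 0.07 with them. Rnd3, an atypical small GTPase that binds and inhibits ROCK1, was at −0.28 (adjusted p = 0.0528 from edgeR), and Msn, which encodes the membrane-actin linker moesin, at 0.21 (adjusted p = 0.0574 from edgeR). Both passed with the offsets, Rnd3 as lower (−0.35, adjusted p = 1.3e-05 from edgeR) and Msn as higher (0.18, adjusted p = 0.00204 from edgeR). In that fit 7 of the 25 passed as higher and 2 as lower, beside 11.2% and 7.74% of all genes. Msn is X-linked, and for it, as for all genes here, sex and genotype cannot be told apart.

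Among 14 tested formins outside the diaphanous group and their partners, 1 passed as higher and none as lower, with a median of −0.05. With the offsets 3 of the 14 passed as higher and 1 as lower, beside 11.2% and 7.74% of all genes, and the median was 0.09. Daam1, a formin of Wnt-dependent cell polarity, rose by 0.34 on the log2 scale (SE 0.08, adjusted p = 0.0371 from edgeR), with means of 1282 ± 86.9 and 1622 ± 104 normalized counts (SD, n = 3 each). Mrtfa, the actin-sensing coactivator of SRF, was at −0.28 (adjusted p = 0.0982 from edgeR) and Spire1, an actin nucleator that works with formins, at 0.14 (adjusted p = 0.177 from edgeR). Of the 18 genes of the Arp2/3 complex, which nucleates branched filaments, and its activators, 1 passed as higher and none as lower, with a median of 0.10. With the offsets 4 of the 18 passed as higher and 2 as lower, beside 11.2% and 7.74% of all genes, and the median was 0.08. Wasl, which encodes the Arp2/3 activator N-WASP, rose by 0.32 on the log2 scale (SE 0.08, adjusted p = 0.0380 from edgeR), with means of 1094 ± 39.5 and 1365 ± 82.3 normalized counts (SD, n = 3 each). Actr3 was at 0.20 (adjusted p = 0.0890 from edgeR) and Arpc1a at −0.20 (adjusted p = 0.102 from edgeR), both subunits of the complex, and both passed with the offsets, in the same directions (adjusted p = 0.0192 and 0.0351 from edgeR). The calls of Daam1 and Wasl ended without Pdcd1f/f replicate 2 (adjusted p = 0.177 and 0.206 from edgeR), Pdcd1f/f replicate 3 (0.154 and 0.116), Pdcd1f/fLysMcre replicate 1 (0.135 and 0.162) or replicate 2 (0.119 and 0.117), and that of Daam1 also without Pdcd1f/fLysMcre replicate 3 (0.0568).

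**Figure D5:**
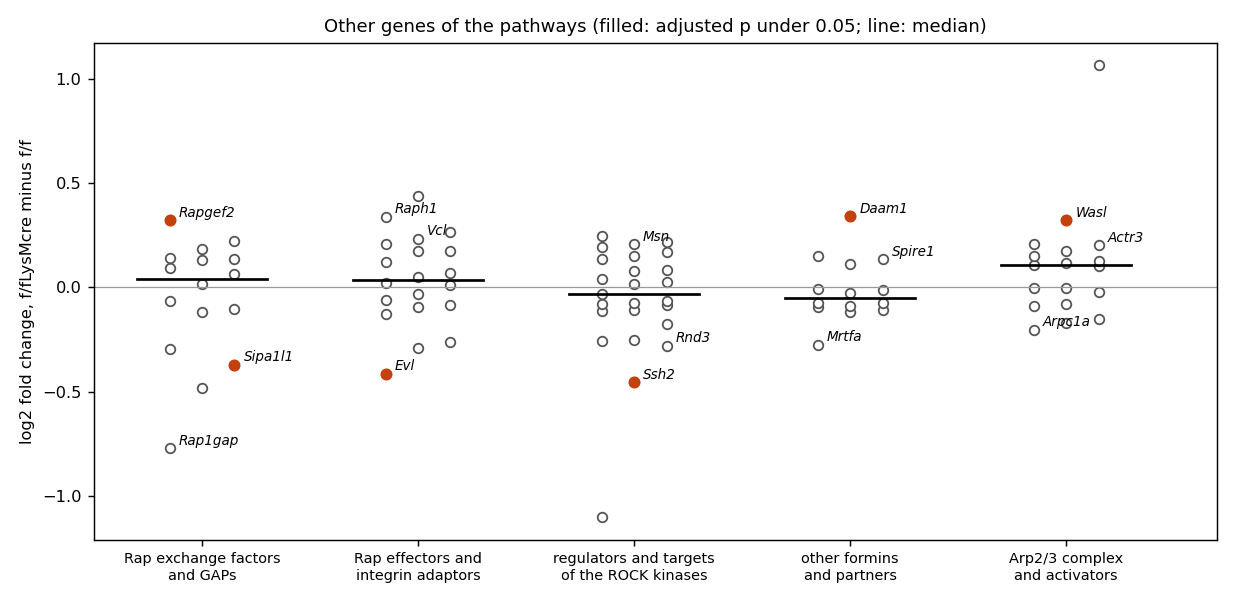
Log2 fold change (y axis) of each tested gene in 5 lists of related genes (x axis), without offsets, filled where the adjusted p from edgeR was under 0.05, with a black line at each median. The medians lie between −0.05 and 0.10, and the filled genes are Rapgef2, Daam1 and Wasl above 0 and Sipa1l1, Evl and Ssh2 below.

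Genes with the pattern most like that of a member over the 6 libraries were sought by the root mean square difference of centred log2 CPM, as a description. For Rap1a they were Vma21, Rybp and Rbmx (0.0106, 0.0144 and 0.0145 on the log2 scale), and for Apbb1ip they were Dis3, Wapl and Xpo1 (0.0139, 0.0162 and 0.0191). Like Rap1a and Apbb1ip, none of these 6 genes passed the threshold without offsets, which their choice by a matching pattern over both genotypes largely fixed. All 6 had under 45% GC.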

How the data were processed

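The RNA-seq data covered CD11b+F4/80+ TAMs, with 3 libraries a genotype. Raw counts of Ensembl genes were deposited by the authors, who made them with cutadapt (2.5), STAR (2.7.3a) on GRCm38 and featureCounts (Subread 1.6.2) over Ensembl release 98. Whether counting used strand, and how multi-mapped reads were treated, is not given in the sources used here. The deposited normalized signal equals these counts divided by 1 DESeq2 size factor per library, and is the unit of the normalized counts printed above. All 6 sample columns of both tables were used.

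The comparison used edgeR 4.0.16 in R 4.3.3 on the raw counts of all genes, with filterByExpr (minimum count 10, minimum total 15), TMM, robust glmQLFit, the two-sided glmQLFTest and Benjamini-Hochberg adjustment over 14469 genes at 0.05. The offsets came from a loess fit (span 0.5) of each library on GC content and on log10 merged exon length from GENCODE M21. FPKM used TMM and that length. Exact permutation tests on 3 against 3 libraries cannot go below p = 0.1. Intervals are at 95%. Scripts were tested on simulated data. DESeq2 1.42.0, limma 3.58.1 on log2(value + 1), other filters, scalings and left-out libraries were alternatives. The members and lists were chosen with earlier results of these data known. Of each list the text names up to 6 genes past the threshold and otherwise the smallest p until 3 are named, and of the genes near Lyz2 those past it. Cct2, Mdm2 and Nup107, labelled in a plot or caption, were chosen after their values were seen.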

Additional observations from a re-analysis of the deposited data

How the results depend on the processing

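Of the 14469 genes tested, 350 passed as higher and 436 as lower in Pdcd1f/fLysMcre, so 44.5% of the calls were higher, against 59.1% once GC content and gene length offsets were used. The counts of higher and lower genes were 1550 and 1068 with GC content offsets, 1617 and 1120 with GC content and gene length offsets, 1658 and 1175 with those offsets and the replicate block, 884 and 1067 with no filter beyond 1 count, 743 and 774 with DESeq2, 934 and 974 with Storey q-values, and 109 and 174 at an adjusted p of 0.01. Leaving out 1 library gave 82 to 1478 higher and 139 to 1703 lower, with the most without Pdcd1f/f replicate 1. Of the 10 genes, 7 passed with GC content offsets, 8 with GC content and gene length offsets, 8 with these and the block, 6 with no filter beyond 1 count, 1 with at least 10 counts in every library, 4 with DESeq2, 5 with Storey q-values and 0 to 6 with 1 library left out, the 6 being those without Pdcd1f/f replicate 1. Alternatives chosen after seeing the data were the fit of 4 libraries without Pdcd1f/f replicate 1 and Pdcd1f/fLysMcre replicate 2 (1801 higher, 1956 lower, 7 of the 10), the offsets in those 4 libraries (1935, 1584 and 9 of the 10) and the offsets without Pdcd1f/f replicate 1 alone (1862, 1496 and 7 of the 10). Whether the replicate numbers pair the libraries is not given in the labels. The deviations of libraries with the same number had Pearson correlations of −0.126, −0.500 and 0.732. These deviations carry the trends of the libraries with GC content, so the correlations cannot decide on a pairing. With the replicate block 460 genes passed as higher and 567 as lower, among them 3 of the 10. RLE size factors, library size alone, limma and the 0.01 threshold called none of the 10.

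Over 21 alternatives each, 8 of the 10 genes stayed above 0 in all, and the number that passed ranged from 5 for Diaph1 to 11 for Apbb1ip and Diaph3 among them. Diaph2 never passed and changed sign in the 4 libraries (0.059). With 1 library left out it ranged from −0.074 to 0.10, and it was above 0 without Pdcd1f/f replicate 1 (0.10) and without Pdcd1f/fLysMcre replicate 3 (0.055). Tln1 changed sign to 0.085 with GC content offsets, 0.077 with GC content and gene length offsets, 0.076 with these and the block, 0.10 with the offsets in 5 libraries, 0.13 with the offsets in 4 libraries, its single call (adjusted p = 0.00512 from edgeR), and 0.046 without Pdcd1f/fLysMcre replicate 2, the highest of a range from −0.11 with 1 library left out. The cause of these shifts was not tested. Each of the 10 genes had at least 1904 counts in every library, so counting error was below the variation between libraries (common coefficient 8.92%). Depth limited genes with few counts, among them Pdcd1, Rap1gap and some genes near Lyz2.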
